A study of Mus musculus with 4 samples.

Results

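The genes described here encode the pyruvate dehydrogenase and oxoglutarate dehydrogenase complexes and the enzymes that attach lipoic acid to them. Members were taken by symbol, and all 10 were found once among the 28585 genes listed for each library: Pdha1, Pdhb, Dlat, Dld, Pdhx, Ogdh, Dlst, Lias, Lipt1 and Lipt2. Bulk RNA sequencing had been performed on polymorphonuclear myeloid-derived suppressor cells (PMN-MDSCs), neutrophil-like cells that restrain T cells, sorted as CD11b+ Ly6C lo/- Ly6G+ from the spleens of mouse pups on postnatal day 7. There were 2 libraries from Dhps fl/fl Lysm cre pups (labelled Dhps cko) and 2 from Dhps fl/fl pups (labelled Dhps flox), all on a C57BL/6J background. Both groups carry the floxed Dhps alleles, and the groups differ by Lysm cre, a Cre recombinase expressed from the lysozyme locus in myeloid cells, which deletes floxed Dhps only in cells that express it. Dhps encodes deoxyhypusine synthase, which uses spermidine to modify the translation factor eIF5A. The labels do not say whether a library came from 1 pup or from several, and every library held transcripts of both sexes, as given below. The p-values measure the spread between these libraries and cannot be read as the spread between single pups.

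Pyruvate dehydrogenase turns pyruvate into acetyl-CoA at the entry to the tricarboxylic acid (TCA) cycle, and oxoglutarate dehydrogenase carries out the related step on 2-oxoglutarate inside the cycle. In each complex a dehydrogenase passes its product to an acyltransferase through a lipoyl arm, and dihydrolipoamide dehydrogenase then reoxidizes that arm. The arm is built on a carrier, the H protein of glycine cleavage: LIPT2 places on it an octanoyl group made by mitochondrial fatty acid synthesis, LIAS inserts sulfur with the help of iron-sulfur clusters, and LIPT1 moves the finished lipoyl group onto the acyltransferases. The question for these libraries was whether the transcripts of this machinery differed in PMN-MDSCs from Dhps cko pups. Values are FPKM, fragment counts scaled to transcript length and to the number of mapped fragments, so that levels of different genes are on a per-length scale, while comparisons between libraries depend on this scaling.

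No transcript of the machinery passed the test between the genotypes. Of the 9 genes that could be tested, 0 had an adjusted p under 0.05 (limma with Benjamini-Hochberg adjustment over all genes), where 0.00557% of all genes tested did. At an unadjusted p under 0.05 there was 1 of 9, Lipt1, which was higher in Dhps cko. Of all genes tested, 4.72% passed that threshold with a higher level in Dhps cko and 2.28% with a lower one. The other 8 had log2 fold changes between -0.23 and 0.23. The tenth gene, Lipt2, had a mean of 0.0825 FPKM, under the filter of 0.1 FPKM, and was not tested.

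The depth of the libraries could only be approximated: the spacing of low FPKM values gave 29600000 to 31700000 mapped fragments, and between 10611 and 10729 genes reached 1 FPKM. The targeted gene Dhps was at 2.38 and 2.59 FPKM in Dhps cko and at 3.57 and 3.11 FPKM in Dhps flox, lower in both Dhps cko libraries but detected in each (log2 fold change -0.41, adjusted p = 0.63 from limma). The 12 neutrophil markers examined were above 0 in every library and summed to between 74475.3 and 81659.5 FPKM, and 11 of 12 had a log2 fold change above 0, that is, a higher mean log2(FPKM + 0.1) in Dhps cko. Markers of other cell types were at lower levels, and none was at 0 in any library. The 6 B cell markers summed to 24.2 and 24.5 FPKM in Dhps cko and to 14.3 and 18.6 in Dhps flox, and the 8 monocyte-macrophage markers to 161.6 and 166.4 against 133.1 and 128.1, with 6 of 6 and 8 of 8 log2 fold changes above 0. The T cell, erythroid and eosinophil markers had log2 fold changes above 0 for 6 of 6, 6 of 6 and 5 of 5. The platelet markers did for 2 of 4. Erythroid sums overlapped between the groups, at 451.8 and 541.4 FPKM in Dhps cko and 368.8 and 553.1 in Dhps flox. Platelet sums overlapped too, while T cell and eosinophil sums were higher in both Dhps cko libraries. The 4 Y-linked genes Kdm5d, Uty, Ddx3y and Eif2s3y were summed. Their sum came to 7.07 and 8.07 FPKM in Dhps cko and to 17.64 and 15.62 in Dhps flox, lower in both Dhps cko libraries. Xist, the transcript of the inactive X chromosome, was higher in both, at 27.54 and 20.27 FPKM against 16.25 and 17.17 FPKM in Dhps flox. Every library thus held both Xist and Y-linked transcripts. Both measures differed along with genotype, so an effect of the mix of sexes and one of genotype cannot be told apart. The part of these marker and sex-linked differences in any value below was not tested. In bulk samples, fewer cells of a type and less RNA per cell cannot be told apart.

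The levels of the 10 genes spanned a 364-fold range. Over the 4 libraries, Ogdh was highest at a mean of 30.1 FPKM, followed by Pdha1 at 25.4, Dlst at 23.0, Dld at 17.1 and Pdhb at 11.5 FPKM. A second tier held Lias at 4.52, Dlat at 4.07 and Pdhx at 2.47 FPKM, and Lipt1 and Lipt2 lay far below at 0.33 and 0.0825 FPKM. Each gene was above the next in 4 of 4 libraries. The ranges of Lias and Dlat over the libraries overlapped, although Lias was the higher within each library, while the ranges of all other neighbours were separate.

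**Figure D1:**
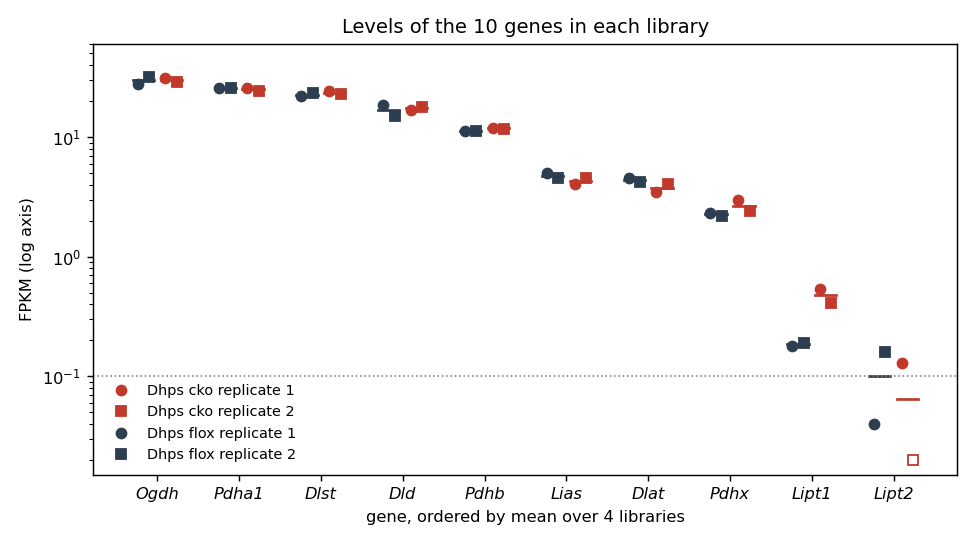
Level of each gene in each library in FPKM on a log axis, with Dhps flox in dark blue, Dhps cko in red, circles for replicate 1, squares for replicate 2 and short bars for the mean of each group. The dotted line is the filter of 0.1 FPKM, and the open square at the bottom stands for Lipt2 listed at 0 in Dhps cko replicate 2. The groups lie close together on this axis from Ogdh at 30.1 FPKM to Pdhx at 2.47 FPKM, although those of Pdha1, Pdhb, Dlat and Pdhx do not overlap, and Lipt1 has groups that stand farther apart.

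The dehydrogenase subunits of the pyruvate dehydrogenase complex differed by little between genotypes. Pdha1 (ENSMUSG00000031299; chromosome X, 160122209 to 160138413 on the minus strand of GRCm38), which encodes the catalytic alpha subunit, was at 25.68 and 24.39 FPKM in Dhps cko and at 25.87 and 25.69 FPKM in Dhps flox. Both Dhps cko libraries were lower, replicate 1 by only 0.01 FPKM, and the log2 fold change was -0.04 (95% interval -0.20 to 0.11). Pdha1 is X-linked, and Xist was higher in both Dhps cko libraries, as given above. Of the exon bases of Pdha1, 16.1% also lie in exons of Map3k15 on the other strand, which was at 16.2 to 17.33 FPKM. Whether strand was used in counting is not given in the sources used here, so reads from that stretch cannot be told apart. Pdhb (ENSMUSG00000021748; chromosome 14, 8165996 to 8173025), the beta subunit that pairs with Pdha1, was at 11.85 and 11.76 FPKM in Dhps cko and at 11.22 FPKM in both Dhps flox libraries. Here the Dhps cko libraries were the higher, with a log2 fold change of 0.07 (95% interval -0.10 to 0.24).

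Dlat and Pdhx, the core of the complex, lay on opposite sides. Dlat (ENSMUSG00000000168; chromosome 9, 50634633 to 50659780) encodes the lipoylated acyltransferase, the subunit that carries the arm. It was at 3.45 and 4.03 FPKM in Dhps cko and at 4.58 and 4.21 FPKM in Dhps flox, so that the Dhps cko mean was 85.1% of the Dhps flox mean. The groups did not overlap, and the log2 fold change of -0.23 had a 95% interval of -0.55 to 0.09 (adjusted p = 0.78 from limma). Without Dhps cko replicate 1 the value for Dlat was -0.12, and without Dhps cko replicate 2 it was -0.34. Pdhx (ENSMUSG00000010914; chromosome 2, 103021075 to 103073513), a lipoylated protein that anchors dihydrolipoamide dehydrogenase to the core, was at 2.96 and 2.39 FPKM in Dhps cko and at 2.32 and 2.19 FPKM in Dhps flox. It was higher in both Dhps cko libraries, by a log2 fold change of 0.23 (95% interval -0.16 to 0.62, adjusted p = 0.81 from limma), and the value was 0.08 without Dhps cko replicate 1 and 0.38 without Dhps cko replicate 2. Dld (ENSMUSG00000020664; chromosome 12, 31331277 to 31351453), the dihydrolipoamide dehydrogenase that all lipoylated complexes share, was at 16.93 and 17.85 FPKM in Dhps cko and at 18.43 and 15.07 FPKM in Dhps flox. The Dhps flox libraries lay on either side of the Dhps cko libraries, and the log2 fold change was 0.06 (95% interval -0.23 to 0.35).

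Both genes of the oxoglutarate dehydrogenase complex overlapped between genotypes. Ogdh (ENSMUSG00000020456; chromosome 11, 6291633 to 6356642), its dehydrogenase, was at 31.39 and 29.06 FPKM in Dhps cko and at 27.84 and 31.98 FPKM in Dhps flox. The lowest and the highest value were both in Dhps flox, and the log2 fold change of 0.02 had a 95% interval of -0.22 to 0.25. Dlst (ENSMUSG00000004789; chromosome 12, 85110833 to 85134845), its lipoylated succinyltransferase, was at 24.13 and 22.79 FPKM in Dhps cko and at 22.09 and 23.17 FPKM in Dhps flox. The groups overlapped, with a log2 fold change of 0.05 (95% interval -0.12 to 0.22).

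The lipoate enzymes included the least abundant transcripts of the 10, Lipt1 and Lipt2. Lias (ENSMUSG00000029199; chromosome 5, 65391497 to 65410693), lipoyl synthase, was at 4.06 and 4.52 FPKM in Dhps cko and at 4.98 and 4.51 FPKM in Dhps flox. Dhps cko replicate 2 and Dhps flox replicate 2 were 0.01 FPKM apart, so the groups overlapped, and the log2 fold change was -0.14 (95% interval -0.43 to 0.14). It was -0.07 without Dhps cko replicate 1 or without Dhps flox replicate 1, -0.22 without Dhps cko replicate 2 and -0.21 without Dhps flox replicate 2. Lipt1 (ENSMUSG00000037216; chromosome 1, 37871738 to 37876228 on the plus strand), lipoyltransferase 1, was at 0.54 and 0.41 FPKM in Dhps cko and at 0.18 and 0.19 FPKM in Dhps flox. Each Dhps cko library was above each Dhps flox library, and the Dhps cko mean was 2.57 times the Dhps flox mean in FPKM. On the log2(FPKM + 0.1) scale, which understates changes of low genes, the log2 fold change was 1.00 (standard error 0.31, 95% interval 0.20 to 1.81, unadjusted p = 0.024 and adjusted p = 0.63 from limma). Without Dhps cko replicate 1 the unadjusted p of Lipt1 from limma was 0.077, without Dhps cko replicate 2 it was 0.036, without Dhps flox replicate 1 it was 0.058 and without Dhps flox replicate 2 it was 0.052.

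Few fragments stood behind Lipt1 and Lipt2. At the approximate depths, and for the longest annotated transcript of 1485 bases, the Lipt1 values stand for about 25.4 and 18.9 fragments in Dhps cko and 8.2 and 8.4 fragments in Dhps flox. Of the exon bases of Lipt1, 12.8% are shared with the other strand: 262 bases from 37874864 to 37875125, at the start of its coding exon, lie in the last exon of 1 of 5 annotated transcripts of Mitd1. Mitd1, looked up for this overlap after the values of Lipt1 were seen, encodes a protein of cell abscission and was itself at 3.47 and 3.22 FPKM in Dhps cko and at 2.70 and 2.56 FPKM in Dhps flox (log2 fold change 0.34, adjusted p = 0.67 from limma). Reads of Mitd1 in these bases could count for Lipt1, and how far they do was not tested. Lipt2 (ENSMUSG00000030725; chromosome 7, 100159277 to 100161365), the octanoyltransferase, was at 0.13 FPKM and listed at 0 in Dhps cko, and at 0.04 and 0.16 FPKM in Dhps flox. These values stand for between 0 and about 7.9 fragments per library, and what size of difference could be detected at this depth was not tested.

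The promoter of Lipt1, the gene with the largest fold change of the 9, and that of Ogdh, the most abundant, are shown for context, as 150 bases before an annotated RefSeq start on GRCm38.p6, 5′ to 3′ on the plus strand. RefSeq gives 3 windows for Lipt1 and 6 for Ogdh, and those shown were picked after the matches were seen: the Lipt1 window is the one with the most marked matches, and 3 of the 6 Ogdh windows hold none in these bases. Capitals mark GGGCGG and CCAAT, searched on both strands, and no marked matches overlap. The Lipt1 window spans chr1:37872069-37872218 and the Ogdh window chr11:6291456-6291605.
Lipt1: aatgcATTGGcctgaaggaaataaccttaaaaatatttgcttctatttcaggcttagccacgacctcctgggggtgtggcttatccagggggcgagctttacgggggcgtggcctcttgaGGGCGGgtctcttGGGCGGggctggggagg
Ogdh: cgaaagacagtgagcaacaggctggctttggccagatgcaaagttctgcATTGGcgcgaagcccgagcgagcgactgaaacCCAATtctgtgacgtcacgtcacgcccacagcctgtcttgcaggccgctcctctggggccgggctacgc
In 250 bases before the start, GGGCGG was found in 9 of 17 windows of the 10 genes and in 32.74% of all 32851 windows, and CCAAT in 8 of 17 and 33.85%. TATAAA was found in 1 of 17 windows and in 12.37% of all windows. Several of the 17 windows overlap, as some of Ogdh and Lipt1 do, so 1 site can be counted more than once. By gene, GGGCGG was found for 7 of 10, CCAAT for 5 of 10 and TATAAA for 1 of 10, and no share by gene was computed over all genes. The 17 windows had a median GC content of 58.8%, against 52.4% over all windows.

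**Figure D2:**
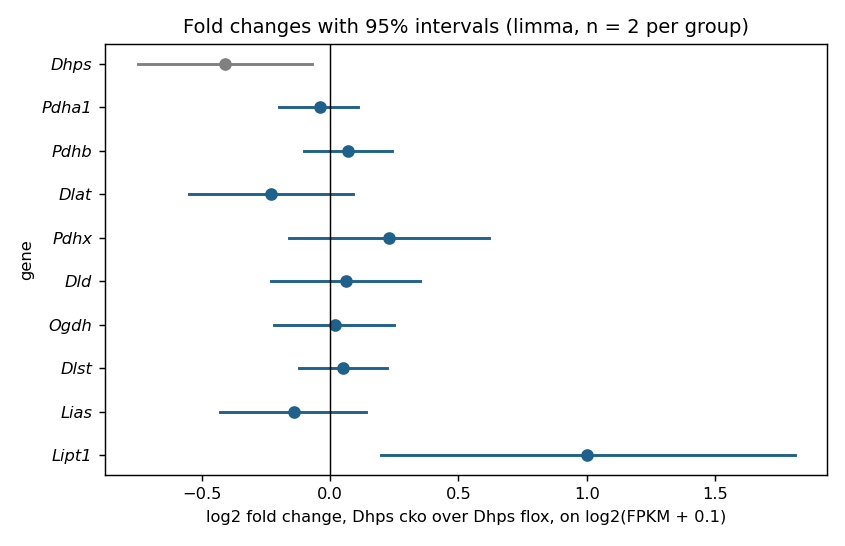
Log2 fold change of Dhps cko over Dhps flox on the log2(FPKM + 0.1) scale for Dhps (grey) and the 9 genes tested (blue), with 95% intervals from limma and 2 libraries per group. The intervals of Dhps and Lipt1 leave out 0, before any adjustment for the number of genes, and the abundant subunits sit close to 0 with short intervals.

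The limma intervals, which carry only the spread between libraries, give the sizes of group difference that the fit leaves possible. They do not cover the marker and sex-linked differences that go along with genotype. For Pdha1, Pdhb, Ogdh and Dlst, the 95% intervals lay within -0.22 and 0.25 on the log2 scale. The intervals of Dlat, Dld, Pdhx and Lias lay within -0.55 and 0.62. The 9 genes tested had a median log2 fold change of 0.05, against 0.01 over all 17953 genes tested, and 6 of 9 were higher in Dhps cko, against 52.2% of all genes. With TPM scaling these were 5 of 9 and 46.0%, and with quantile normalization 5 of 9 and 47.8%. The groups did not overlap for 5 of the 9, Pdhb, Pdhx and Lipt1 above and Pdha1 and Dlat below, where 36.0% of all genes tested were separated in this way, 20.0% above and 16.0% below. With 2 libraries against 2, an exact permutation test cannot give a two-sided p under 0.33.

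Ratios within a library, which do not depend on the scaling between libraries, gave the relative FPKM of the transcripts. Such ratios still depend on the transcript lengths used and on exon bases shared with other genes, as in Pdha1 and Lipt1. They are not a measured stoichiometry. Pdha1 stood to Pdhb at 2.12 ± 0.066 (SD, n = 2 libraries) in Dhps cko and 2.30 ± 0.011 (SD, n = 2) in Dhps flox, although their proteins form pairs. Dlat stood to Pdhx at 1.17 and 1.69 in Dhps cko and at 1.97 and 1.92 in Dhps flox. Its mean difference of -0.46 on the log2 scale (exact permutation test, two-sided p = 0.33, the smallest these libraries can give) was -0.20 without Dhps cko replicate 1 and -0.72 without Dhps cko replicate 2. Dld stood to Dlat at 4.91 and 4.43 in Dhps cko and at 4.02 and 3.58 in Dhps flox. Ogdh stood to Dlst at 1.29 ± 0.018 (SD, n = 2) in Dhps cko and at 1.32 ± 0.085 (SD, n = 2) in Dhps flox. The ratio of Lias to Lipt1 was 7.52 and 11.0 in Dhps cko and 27.7 and 23.7 in Dhps flox. The ratio of Dlat to Pdha1 overlapped between genotypes, at 0.134 and 0.165 in Dhps cko and 0.177 and 0.164 in Dhps flox.

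**Figure D3:**
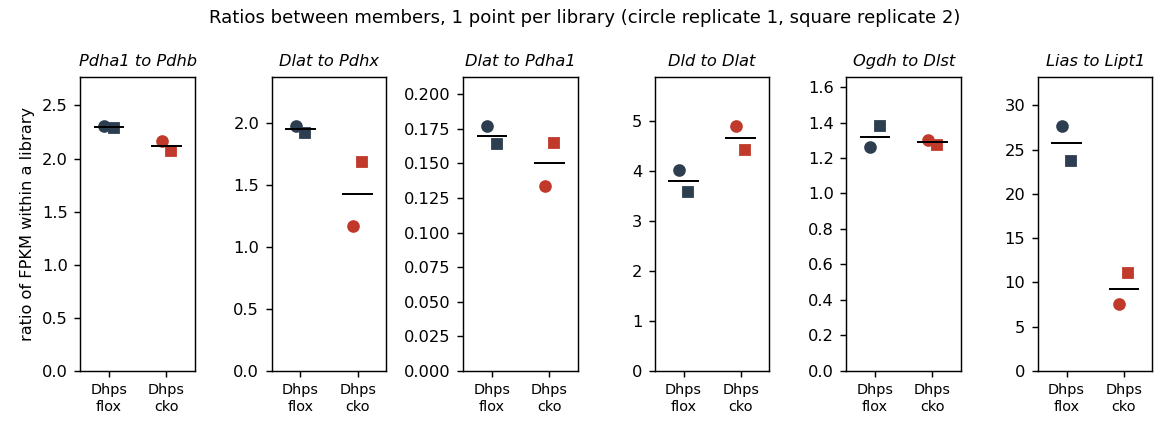
Ratio of FPKM between pairs of the genes within each library, on linear axes from 0, with 1 point per library and a bar for the mean of each group. Ogdh to Dlst lies at 1.29 in Dhps cko and 1.32 in Dhps flox, while Dlat to Pdhx is lower in both Dhps cko libraries, at 1.17 and 1.69 against 1.97 and 1.92.

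No gene around the machinery passed the test either. Across 6 further lists, 49 genes could be tested: 0 had an adjusted p under 0.05 from limma and 0 an unadjusted p under 0.05, where 4.72% of all genes tested had one with a higher level in Dhps cko and 2.28% with a lower one. Their median log2 fold change was 0.03. Among the kinases and phosphatases that switch pyruvate dehydrogenase off and on, 3 of 7 had a log2 fold change above 0 and 4 below, where Pdk4, at a mean of 0.2 FPKM in Dhps cko and 0.205 in Dhps flox, was above 0 only on the log2 scale. Their median log2 fold change was -0.08, and it was 0.04 without Dhps cko replicate 1 and -0.20 without Dhps cko replicate 2. The most abundant, the kinase Pdk3, was at 18.7 and 22.04 FPKM in Dhps cko and at 21.34 and 21.53 FPKM in Dhps flox. Of the mitochondrial fatty acid synthesis genes that supply the octanoyl group, 5 of 6 tested had a log2 fold change above 0, with a median of 0.02, led in level by the synthase Oxsm at 3.12 and 2.98 FPKM in Dhps cko and 3.75 and 3.07 FPKM in Dhps flox.

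The iron-sulfur genes that serve lipoyl synthase gave 8 of 11 log2 fold changes above 0, with a median of 0.03. Nfu1, which carries iron-sulfur clusters to lipoyl synthase, was at 10.92 and 11.22 FPKM in Dhps cko and at 10.09 and 10.24 FPKM in Dhps flox, a log2 fold change of 0.12 (95% interval -0.06 to 0.30, adjusted p = 0.78 from limma). The scaffold Iscu, the most abundant of that list, was at 12.61 and 11.68 FPKM in Dhps cko and 11.86 and 12.34 FPKM in Dhps flox. Both pyruvate carrier genes had log2 fold changes near 0, at 0.11 for Mpc1 and 0.01 for Mpc2. Of the 16 TCA cycle enzymes, 13 had a log2 fold change above 0, within a range of -0.07 to 0.24 and with a median of 0.04, and the most abundant, malate dehydrogenase Mdh2, was at 47.28 and 48.62 FPKM in Dhps cko and at 40.79 and 45.93 FPKM in Dhps flox.

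Of the 10 genes of other lipoylated complexes, 7 could be tested, 4 with a log2 fold change above 0 and 3 below. The glycine cleavage gene Gldc was at 0 to 0.01 FPKM, Dhtkd1 at 0 to 0.05 FPKM and Ogdhl at 0 to 0.07 FPKM, all under the filter. Gcsh, which encodes the H protein, was at 0.42 and 0.47 FPKM in Dhps cko and at 0.27 and 0.45 FPKM in Dhps flox. Its groups overlapped, with a log2 fold change of 0.27 (95% interval -0.56 to 1.11). The branched-chain kinase Bckdk, the most abundant of the list, was at 16.83 and 16.24 FPKM in Dhps cko and at 15.69 and 16.70 FPKM in Dhps flox. Bckdha and Bckdhb, the branched-chain dehydrogenase subunits, are named after their values were seen. Bckdha was at 11.7 and 12.26 FPKM in Dhps cko and at 13.14 and 15.33 FPKM in Dhps flox, a log2 fold change of -0.24 (95% interval -0.49 to 0.01). Bckdhb was at 0.26 and 0.34 FPKM against 0.53 FPKM in both Dhps flox libraries, a log2 fold change of -0.66 (95% interval -1.38 to 0.06). Neither had an unadjusted p under 0.05 (0.055 and 0.064 from limma, adjusted p = 0.72 and 0.74).

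**Figure D4:**
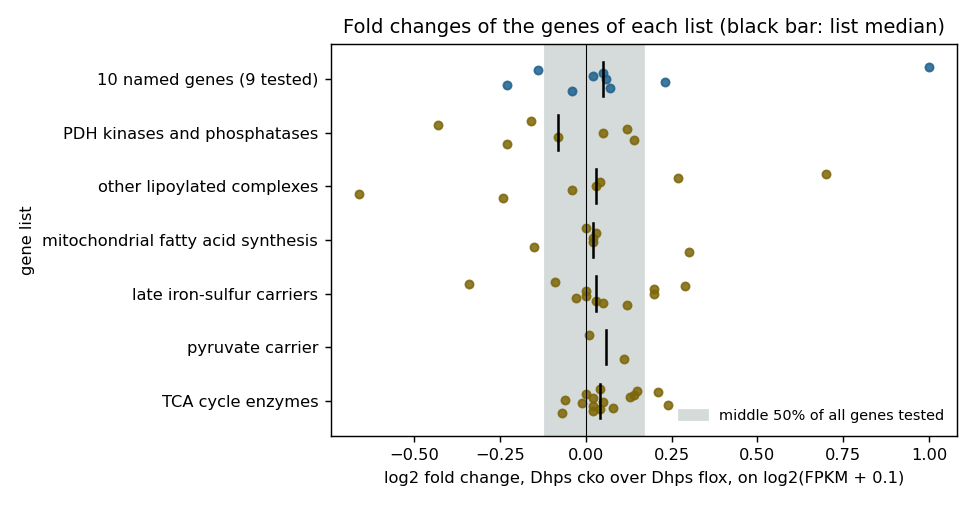
Log2 fold change of Dhps cko over Dhps flox for each gene tested, by list, with a black bar at the list median and a grey band from -0.12 to 0.17 for the middle 50% of all genes tested. List medians lie between -0.08 and 0.06, inside the band, and Lipt1 at 1.00, Amt at 0.70 and Bckdhb at -0.66 lie farthest out, each with a mean under 1 FPKM. Amt, of the glycine cleavage system, is named here after its value was seen.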

How the data were processed

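Total RNA of sorted PMN-MDSCs was sequenced in 4 libraries. The authors filtered reads with Cutadapt, aligned them with HISAT2 to mm10, and calculated FPKM with StringTie and ballgown, and the deposited FPKM are rounded to 2 decimals. Gene annotation and strand setting are not given in the sources used here. Here 0.1 was added to each FPKM before taking log2, and genes averaging under 0.1 FPKM were dropped, which left 17953. The genotypes were compared without a replicate block by moderated linear models (limma 3.58.1, R 4.3.3, variance trended on level), and p-values were adjusted by Benjamini-Hochberg with a threshold of 0.05. The fit was also run on simulated data, with changes larger than those of the members and only in genes above the level of Lipt1. That run does not show how well smaller changes, or changes in such low genes, are found. Coordinates come from GENCODE M21 (GRCm38), which holds 28511 of the gene identifiers, and promoters from RefSeq, with windows found for 10 of 10 genes.

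Depth was approximated from the spacing of low FPKM in short single-exon genes. Only 38.0% to 41.0% of these values fell close to a multiple of the spacing (30% would by chance), so reads were not recovered and no count test was run. FPKM fall for all genes when a few abundant genes take more fragments, and the 10 most abundant held 29.9% to 31.4% of each library's sum.

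Members and lists were chosen with earlier results of these data known. Genes named are the members, Dhps, Nfu1, pathway list genes with an unadjusted p under 0.05 (there were 0) and the most abundant gene of each pathway list. Xist and 4 Y-linked genes were named as sex-linked, and Mitd1, Map3k15, Apip, Rpl9 and Prox2 were named for their position. Gldc, Dhtkd1, Ogdhl, Gcsh, Pdk4, Mpc2, Bckdha, Bckdhb and Amt were named after their values were seen. Alternatives changed the pseudocount, filter, scaling or variance model, added a replicate block or left out a library. Hsd17b8 had no row, and the protein sequences were not used here.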

Additional observations from a re-analysis of the deposited data

How the results depend on the processing

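Of the 9 genes tested, 0 had an adjusted p under 0.05 under any of 14 alternatives, and no gene of the other lists did. Lipt1 stayed higher in Dhps cko under every alternative that tested it, with a log2 fold change from 0.31 with a pseudocount of 1 to 1.30 with a pseudocount of 0.01 and adjusted p between 0.48 and 0.96 from limma. The number of genes with an unadjusted p under 0.05 among the 10 fell from 1 to 0 with a minimum mean of 1 FPKM, which leaves out Lipt1, and ranged from 0 to 1 with each library left out. Their median, on the log2 scale, ranged from 0.01 to 0.08 with each library left out. Pdha1, Dlat and Lias stayed lower and Pdhb, Pdhx and Dlst higher under all alternatives that were run.

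Ogdh changed sign, to -0.01 with TPM scaling and 0.00 (rounded) with quantile normalization, and ranged from -0.08 to 0.12 with each library left out. Dld, at -0.08 without Dhps flox replicate 2, ranged from -0.08 to 0.20 with each library left out. The log2 ratio of Ogdh to Dlst, at 0.03 without that library, ranged from -0.10 to 0.03. Lipt2, tested only where the filter allowed, was at -0.33 with no filter and 0.27 without Dhps cko replicate 2.

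Over all genes, 1 had an adjusted p under 0.05. The count was 0 with a pseudocount of 0.01, with no filter and with the replicate block, 2 with TPM scaling, quantile normalization or robust variances, 4 with a minimum mean of 1 FPKM, and 0 in each case with a library left out. The number with an unadjusted p under 0.05 was 1257, of which 67.4% were higher in Dhps cko, 819 with a minimum mean of 1 FPKM, and between 723 and 1608 with each library left out. It was 1675 with no filter. That share of higher genes was 56.4% with TPM scaling, 59.1% with quantile normalization and 50.8% without Dhps cko replicate 1. Of the other lists, 1 gene had an unadjusted p under 0.05 with a minimum mean of 1 FPKM, with quantile normalization and with no mean-variance trend, and 0 to 2 with each library left out. List medians changed sign with a library left out, ranging from -0.20 to 0.04 for the kinases and phosphatases, -0.05 to 0.08 for the other lipoylated complexes, -0.05 to 0.09 for fatty acid synthesis, -0.05 to 0.08 for the iron-sulfur genes and -0.02 to 0.15 for the pyruvate carrier, but not for the TCA cycle (0.02 to 0.05).

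The labels do not say what a replicate number marks, and deviations of same-numbered libraries were uncorrelated (r = -0.01 over 17953 genes). With the replicate block the unadjusted p of Lipt1 from limma was 0.044. With 1 library left out of a group, the other is assumed to vary like the rest.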

Other observations

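Of the 10 genes, 3 start within 1000 bases of a protein-coding gene that is transcribed away from them, as 10.2% of the 12594 protein-coding genes tested do. Pdhx starts 162 bases from Apip, a methionine salvage gene, which was at 6.55 and 6.61 FPKM in Dhps cko and at 6.41 and 4.59 FPKM in Dhps flox, with Dhps flox replicate 2 the low library and the other 3 close together (log2 fold change 0.27, adjusted p = 0.80 from limma). Lias starts 53 bases from the ribosomal protein gene Rpl9, which was at 35.67 and 40.17 FPKM in Dhps cko and at 38.8 and 35.61 FPKM in Dhps flox, with overlap between the groups. Dlst starts 74 bases from Prox2, which was at 3.18 and 2.92 FPKM against 2.75 and 2.96 FPKM, also with overlap.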
